A study of Mus musculus with 9 samples.

Results

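Expression of 10 genes of hepatic stellate cell activation and matrix remodelling was examined in mouse liver: Dcn, Lrat, Reln, Des, Pdgfrb, Acta2, Timp1, Timp3, Mmp14 and Adamts2. They were taken by gene name from a table of 56748 genes, each name matched 1 row, and collagen chains were left out. Measurements came from bulk RNA sequencing of 9 liver libraries, 3 each of Control, DSS and Indirubin. None of the 10 genes passed an adjusted p of 0.05 in the main test (edgeR) of any of the 3 comparisons. Under some alternative settings, described below, Mmp14 passed between Indirubin and Control and Reln between DSS and Control. In these libraries Mmp14 was lowest in the Indirubin group, Adamts2 was lowest in the DSS group, and Reln and Lrat were highest in Control. High Des and Acta2 in the Indirubin group came from a single library.

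Hepatic stellate cells lie between hepatocytes and sinusoidal endothelium and store retinyl esters. On injury they can turn into myofibroblasts that contract, proliferate in response to platelet-derived growth factor (PDGF) and secrete matrix. Matrix turnover then depends on metalloproteinases and on their tissue inhibitors (TIMPs), which is why both kinds of gene are followed in liver fibrosis.

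All mice were C57BL/6 (C57BL/6J in the series description), and the study's methods give an age of 7 to 8 weeks for purchased animals. Mice of the DSS group went through 3 cycles of 1 week of 1.8% (w/v) dextran sulfate sodium (DSS), a polymer that injures the colon and causes colitis, each followed by 1 week of recovery, with 200 µL of sterile water by mouth every day. The Indirubin group had the same DSS cycles with indirubin, a constituent of indigo naturalis, at 1 g/kg/day in 200 µL of water. Control mice are labelled as having had water (200 µL by mouth every day), but the series description can be read as DSS in all mice, so whether Control mice had DSS is uncertain here. The labels do not name the animal behind each library, so p-values measure the spread between these samples. The model is one of chronic colitis, in which DSS is given in drinking water and injures the colon.

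Library totals were 6514863 to 7944684 counts, of which 71.6% to 91.3% were mitochondrial, leaving 569044 to 2132208 nuclear counts per library. Hepatocyte markers were high in all 9 libraries (summed 8948 to 21879 normalized CPM, that is, counts relative to the scaled library total), as the tissue label has it. Indirubin-2 and Indirubin-3 stood apart, with summed pancreatic acinar markers of 1664 and 1674 CPM against 0 to 24.6 CPM in the other 7 libraries, all 16 acinar markers being detected in that group. These 2 libraries also had summed red blood cell markers of 675 and 651 CPM (112 to 267 CPM elsewhere) and neutrophil markers of 252 and 92.8 CPM (1.17 to 29.6 CPM elsewhere). Counts were scaled by TMM (trimmed mean of M values) over the 9 libraries to give CPM. Fold changes below come from edgeR's quasi-likelihood test within each pair of groups, with Benjamini-Hochberg adjustment over all genes tested.

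**Figure D1:**
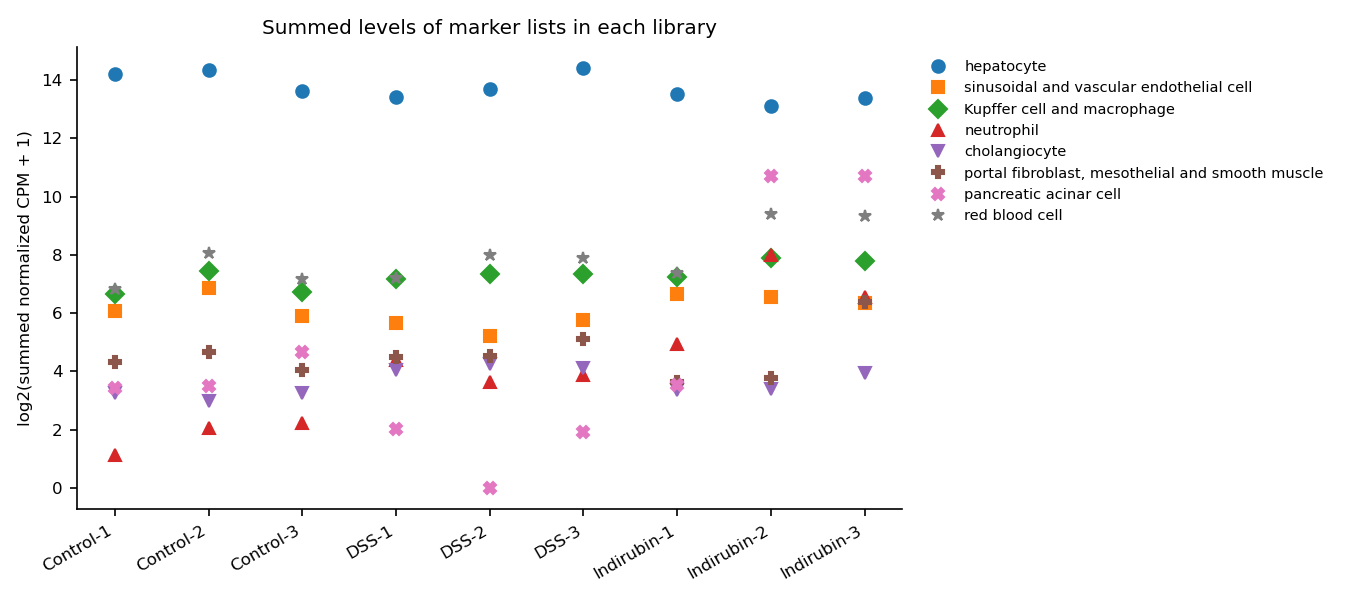
Summed level of 8 lists of marker genes in each of the 9 libraries, on the vertical axis as log2 of summed normalized CPM plus 1, with a symbol for each list. Acinar and red blood cell markers are highest in Indirubin-2 and Indirubin-3, and hepatocyte markers are the highest list in every library.

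Per length, on the scale of the deposited FPKM (fragments relative to gene length and library size), the 10 genes spanned a wide range of levels. Mean FPKM over 9 libraries was 11.1 for Dcn, 3.57 for Mmp14, 2.44 for Des, 1.10 for Acta2, 0.800 for Lrat, 0.427 for Reln, 0.330 for Adamts2, 0.295 for Pdgfrb, 0.214 for Timp3 and 0.00951 for Timp1. Ranges over the 9 libraries overlapped for every pair of neighbours in this order, from Dcn (5.92 to 19.9 FPKM) and Mmp14 (0.961 to 9.30 FPKM) down to Timp3 (0 to 0.469 FPKM) and Timp1 (0 to 0.0856 FPKM). Summed counts over all libraries were 5104 for Dcn, 1441 for Mmp14, 802 for Des, 640 for Reln and 279 for Lrat. Lower still were Adamts2 with 220 counts, Acta2 with 202, Pdgfrb with 132, Timp3 with 120 and Timp1 with 1. Most of these genes thus had few counts per library.

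Promoter sequence is shown for 4 genes on which the results turn: Mmp14 and Adamts2, the proteases that separated Indirubin from DSS, Reln, with the smallest p between DSS and Control, and Acta2, the marker of myofibroblasts. Each is the 250 bases upstream of the RefSeq start site in mouse build GRCm38.p6, on the strand of the gene, and 8 of the 10 genes had an entry. Capitals mark matches on either strand to a TATA box (TATAAA), a GC box (GGGCGG), an AP-1 site (TGANTCA), an E-box (CAGCTG), a CArG box, or a CArG box with 1 mismatch in its 6 inner bases.
Mmp14 (chr14:54431348-54431597, plus strand): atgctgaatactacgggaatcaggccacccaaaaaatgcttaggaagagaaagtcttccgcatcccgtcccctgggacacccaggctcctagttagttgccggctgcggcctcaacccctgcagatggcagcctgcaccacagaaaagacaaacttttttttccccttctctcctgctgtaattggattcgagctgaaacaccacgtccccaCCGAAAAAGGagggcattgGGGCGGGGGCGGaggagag
Adamts2 (chr11:50601835-50602084, plus strand): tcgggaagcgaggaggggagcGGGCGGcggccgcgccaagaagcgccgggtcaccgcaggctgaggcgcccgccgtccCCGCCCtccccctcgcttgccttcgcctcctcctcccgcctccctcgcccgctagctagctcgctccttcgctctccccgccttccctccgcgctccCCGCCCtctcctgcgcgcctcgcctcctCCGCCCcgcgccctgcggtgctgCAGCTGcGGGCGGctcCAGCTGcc
Reln (chr5:22344706-22344955, minus strand): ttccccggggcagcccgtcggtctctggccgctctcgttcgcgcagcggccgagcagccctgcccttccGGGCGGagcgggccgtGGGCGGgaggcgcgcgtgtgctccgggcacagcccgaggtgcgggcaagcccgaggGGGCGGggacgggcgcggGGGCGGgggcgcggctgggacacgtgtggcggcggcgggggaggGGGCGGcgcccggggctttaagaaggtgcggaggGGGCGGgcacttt
Acta2 (chr19:34255374-34255623, minus strand): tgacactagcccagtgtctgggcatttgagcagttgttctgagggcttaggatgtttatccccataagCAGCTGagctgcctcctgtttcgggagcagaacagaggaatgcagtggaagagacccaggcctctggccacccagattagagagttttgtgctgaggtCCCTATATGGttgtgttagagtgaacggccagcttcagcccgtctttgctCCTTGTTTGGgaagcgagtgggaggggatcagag
In these windows Reln held 6 GC boxes and Adamts2 held 5 GC boxes with 2 E-boxes. The Mmp14 window held 2 adjoining GC boxes and 1 mismatched CArG box, whereas that of Acta2 held 2 mismatched CArG boxes and 1 E-box. Over 32851 promoter windows of this length, 32.7% held a GC box, 13% an E-box, 7.24% a mismatched CArG box, 1.47% a CArG box, 12.4% a TATA box and 6.75% an AP-1 site. These matches describe letters in the windows and were not tested for binding.

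The opening group of genes marks stellate cells themselves. Dcn encodes decorin, a small proteoglycan that binds collagen fibrils and is made by stellate cells and fibroblasts. It lies on chromosome 10 (97315471 to 97354005, plus strand, build GRCm39). Its counts were 508, 280 and 208 in Control, 458, 351 and 427 in DSS, and 260, 1529 and 1083 in Indirubin. Normalized, Dcn was at 98.8, 49.3 and 50.7 CPM in Control, at 54.3, 62.2 and 39.0 CPM in DSS, and at 47.7, 125 and 93.6 CPM in Indirubin. The 3 groups overlapped, and the high values of the Indirubin group were in Indirubin-2 and Indirubin-3, the libraries with acinar transcripts. Dcn differed by a log2 fold change of -0.31 (SE 0.36, adjusted p = 1.00) between DSS and Control, and by 0.78 (SE 0.44, adjusted p = 0.767) between Indirubin and DSS. Without these 2 libraries the latter was -0.11, and the part of acinar tissue in it was not tested.

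Lrat encodes lecithin retinol acyltransferase, which makes the retinyl esters that quiescent stellate cells store. This gene lies on chromosome 3 (82799886 to 82811280, minus strand). Its counts were 39, 47 and 29 in Control, 51, 0 and 36 in DSS, and 25, 39 and 13 in Indirubin. After scaling, Lrat was at 7.59, 8.28 and 7.06 CPM in Control, at 6.05, 0 and 3.29 CPM in DSS, and at 4.59, 3.20 and 1.12 CPM in Indirubin. The 3 Control libraries were thus above all 6 others and close to each other (7.64 ± 0.610 CPM, SD, n = 3), while DSS (3.11 ± 3.03 CPM) and Indirubin (2.97 ± 1.74 CPM) overlapped. Lrat had a log2 fold change of -1.36 (SE 0.59, adjusted p = 0.322) between Indirubin and Control and of -1.23 (SE 0.88, adjusted p = 0.920) between DSS and Control. The latter was -2.13 without DSS-1 and -0.71 without DSS-2, the library with 0 counts. Indirubin against DSS gave -0.09 (SE 1.11), with a direction that turned without DSS-1 (0.71) and without Indirubin-3 (0.30) and stayed below 0 in the other 4 fits with 1 library left out. In bulk liver, fewer stellate cells and less Lrat RNA per cell cannot be told apart, and the same holds for every gene here.

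Reln encodes reelin, a secreted glycoprotein that in liver marks stellate cells. Its locus is on chromosome 5 (22089452 to 22549700, minus strand). Reln counts were 141, 112 and 46 in Control, 80, 11 and 26 in DSS, and 63, 83 and 78 in Indirubin. That gave 27.4, 19.7 and 11.2 CPM in Control, 9.48, 1.95 and 2.38 CPM in DSS, and 11.6, 6.80 and 6.74 CPM in Indirubin. All DSS libraries were below all Control libraries, for which an exact permutation test of 3 against 3 gives its smallest two-sided p, 0.1, whereas Indirubin-1 lay just above Control-3. Means were 19.5 ± 8.12, 4.60 ± 4.23 and 8.37 ± 2.77 CPM (SD, n = 3). Against Control, Reln had a log2 fold change of -2.01 (SE 0.60, adjusted p = 0.252) in DSS, the smallest unadjusted p of these genes in that comparison, and of -1.21 (SE 0.43, adjusted p = 0.236) in Indirubin. With DSS-1, the highest DSS library, left out, the DSS value was -3.13 with an adjusted p of 0.0171, the only fit with a library left out in which a member passed the threshold. Indirubin against DSS gave 0.85 (SE 0.65, adjusted p = 0.893), with overlapping groups. It was 1.83 without DSS-1 and 0.43 without DSS-2.

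Des encodes desmin, an intermediate filament of stellate cells that is also abundant in smooth muscle. The gene is on chromosome 1 (75336973 to 75345223, plus strand). Its counts were 27, 43 and 24 in Control, 48, 54 and 48 in DSS, and 10, 39 and 509 in Indirubin. Scaled, Des was at 5.25, 7.57 and 5.85 CPM in Control and at 5.69, 9.57 and 4.39 CPM in DSS, but at 1.84, 3.20 and 44.0 CPM in Indirubin. Indirubin-3 was thus 4.60 times the next library, and Indirubin-1 and Indirubin-2 were the lowest of all 9. The log2 fold change between Indirubin and DSS was 1.34 (SE 0.92, adjusted p = 0.859), but -1.35 without Indirubin-3. Against Control it was 1.43 (SE 0.90, adjusted p = 0.533), and -1.25 without that library. In Indirubin-3 the other 13 genes of a list for portal fibroblasts, mesothelium and smooth muscle summed to 38.5 CPM, against 9.42 to 29.2 CPM in the other libraries, and the part of such cells in the Des value was not tested.

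Across the stellate markers, then, Lrat and Reln were highest in Control while Dcn and Des were not. The plot of the 10 genes by library shows these patterns side by side.

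**Figure D2:**
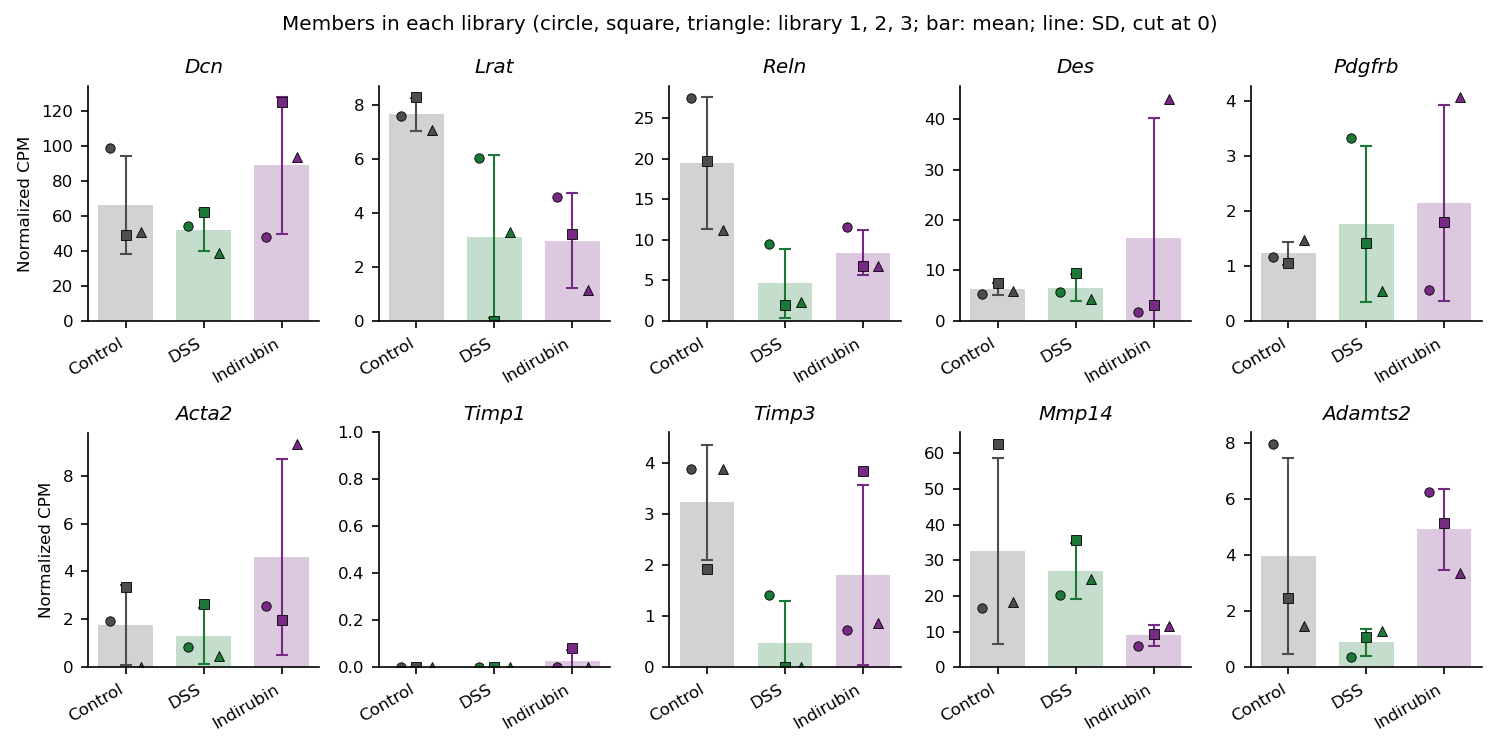
Level of each of the 10 genes as normalized CPM (vertical axes, each starting at 0) in Control, DSS and Indirubin, with a point per library, bars for the group mean and lines for the SD, n = 3. Control libraries are highest for Lrat, Indirubin libraries are lowest for Mmp14, and a single Indirubin library at 44.0 CPM sets the mean of Des.

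Pdgfrb encodes the beta receptor for PDGF, the main mitogen receptor of activated stellate cells. Its counts were 6, 6 and 6 in Control, 28, 8 and 6 in DSS, and 3, 22 and 47 in Indirubin. In CPM these were 1.17, 1.06 and 1.46 in Control, 3.32, 1.42 and 0.548 in DSS, and 0.551, 1.80 and 4.06 in Indirubin. Every group overlapped both others, and DSS-1 and Indirubin-3 were the highest libraries. Pdgfrb was tested only between Indirubin and DSS, where its log2 fold change was 0.29 (SE 1.11, adjusted p = 0.987). Mean CPM in DSS was 1.43 times that in Control (exact permutation test, two-sided, p = 0.8), and in Indirubin 1.74 times that in Control (p = 0.6 by the same exact test).

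Acta2 encodes smooth muscle alpha-actin, the usual marker of stellate cells that have become myofibroblasts, and of vascular smooth muscle. It is on chromosome 19 (34218490 to 34232990, minus strand). Its counts were 10, 19 and 0 in Control, 7, 15 and 5 in DSS, and 14, 24 and 108 in Indirubin. Scaled, these were 1.95, 3.35 and 0 CPM in Control, 0.830, 2.66 and 0.457 CPM in DSS, and 2.57, 1.97 and 9.33 CPM in Indirubin. As for Des, Indirubin-3 was the highest library, at 2.79 times the next, and the other 8 overlapped. The log2 fold change between Indirubin and DSS was 1.85 (SE 0.96, adjusted p = 0.739), and 0.80 without Indirubin-3. Against Control it was 1.40 (SE 1.00, adjusted p = 0.598), and 0.36 without that library. DSS against Control gave -0.36 (SE 1.49, adjusted p = 1.00), a value whose sign turned without Control-2 or without DSS-3.

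TIMPs bind and block metalloproteinases. Timp1, on chromosome X (20736405 to 20740974, plus strand), had 1 count in Indirubin-2 and 0 counts in the other 8 libraries. A count of 0 allows up to 3 counts per library, so all 3 groups were at or under the floor and no fold is given. Timp1 lies within Syn1, which is on the opposite strand and had 24 counts over the 9 libraries.

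Timp3, which unlike other TIMPs is bound to the matrix, lies on chromosome 10 (86136236 to 86185370, plus strand). Its counts were 20, 11 and 16 in Control, 12, 0 and 0 in DSS, and 4, 47 and 10 in Indirubin. In CPM, Timp3 was at 3.89, 1.94 and 3.90 in Control, at 1.42, 0 and 0 in DSS, and at 0.734, 3.85 and 0.864 in Indirubin. All DSS libraries were below all Control libraries, and 2 of the 3 had no count, while Indirubin overlapped both. Timp3 had a log2 fold change of -2.65 (SE 1.57, adjusted p = 0.836) between DSS and Control and of -0.77 (SE 0.88, adjusted p = 0.783) between Indirubin and Control. Both moved with single libraries. Without DSS-1 no count was left in DSS, and the other fits with 1 library left out gave -2.94 to -2.05. Against Control, Indirubin was at -1.96 without Indirubin-2 and at -0.41 without Indirubin-3. It was too low to be tested between Indirubin and DSS, where mean CPM was 3.83 times higher in Indirubin (exact permutation test, two-sided, p = 0.3). Timp3 lies within Syn3, on the opposite strand, which had 11 counts in all.

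Mmp14 encodes a membrane-anchored metalloproteinase that cleaves collagen at the cell surface and activates the gelatinase Mmp2. It is on chromosome 14 (54669069 to 54682821, plus strand). Mmp14 counts were 86, 356 and 75 in Control, 172, 201 and 270 in DSS, and 32, 115 and 134 in Indirubin. Scaled, Mmp14 was at 16.7, 62.7 and 18.3 CPM in Control, at 20.4, 35.6 and 24.7 CPM in DSS, and at 5.88, 9.42 and 11.6 CPM in Indirubin. Each Indirubin library was therefore below each of the 6 other libraries, with means of 8.96 ± 2.88 CPM in Indirubin, 26.9 ± 7.85 CPM in DSS and 32.6 ± 26.1 CPM in Control (SD, n = 3). Indirubin against DSS gave a log2 fold change of -1.58 (SE 0.43, adjusted p = 0.433), the smallest unadjusted p of these genes in any comparison. It was -1.86 to -1.40 with each library left out in turn, and -2.18 (adjusted p = 1.00) without Indirubin-2 and Indirubin-3, where a single Indirubin library is assumed to vary like the DSS libraries. Against Control, Mmp14 differed by -1.81 (SE 0.53, adjusted p = 0.157), but by -0.97 without Control-2, its highest library. DESeq2 gave this difference as -1.83 with an adjusted p of 0.0373, so the call depended on the test. Between DSS and Control the value was -0.21 (SE 0.46, adjusted p = 1.00). A non-coding gene within Mmp14 on the same strand, ENSMUSG00000120849, had 47 counts over the 9 libraries.

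Adamts2 encodes the procollagen N-proteinase, which trims the amino-terminal propeptide from fibrillar collagens. It is on chromosome 11 (50492911 to 50698400, plus strand). Adamts2 counts were 41, 14 and 6 in Control, 3, 6 and 14 in DSS, and 34, 63 and 39 in Indirubin. After scaling, Adamts2 was at 7.98, 2.47 and 1.46 CPM in Control, at 0.356, 1.06 and 1.28 CPM in DSS, and at 6.24, 5.16 and 3.37 CPM in Indirubin. The 3 Indirubin libraries were above the 3 DSS libraries by a clear margin, whereas Control-3 was only just above DSS-3. The log2 fold change between Indirubin and DSS was 2.43 (SE 0.85, adjusted p = 0.500), and 1.94 to 2.80 with each library left out in turn. Without Indirubin-2 and Indirubin-3 it was 2.77 (adjusted p = 1.00), again with 1 Indirubin library. DSS against Control gave -2.09 (SE 1.07, adjusted p = 0.721), and Indirubin against Control gave 0.32 (SE 0.69, adjusted p = 0.909). Without Control-1, the highest Control library, these were -1.11 and 1.30, and the second was -0.09 without Control-3 and -0.01 without Indirubin-1. Hence the protease that works at the cell surface and the one that processes procollagen lay in opposite directions between Indirubin and DSS.

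**Figure D3:**
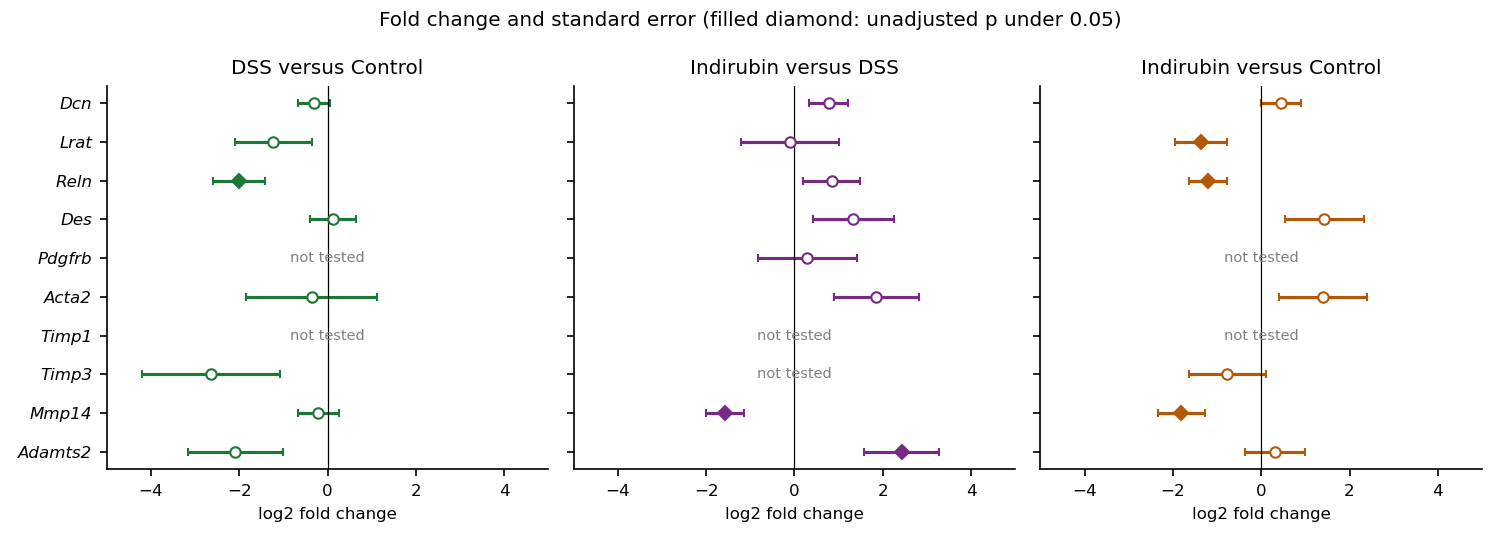
Log2 fold change (horizontal axes) of each gene in the 3 comparisons, with lines for the standard error and filled diamonds where the unadjusted p was under 0.05. Mmp14 at -1.58 and Adamts2 at 2.43 are the filled points between Indirubin and DSS, and genes too low for the test are marked as not tested.

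Counted over the set, 8 of the 10 genes could be tested in each comparison. A gene can enter the test through 1 group in which it is high, so these counts are a description. Between DSS and Control 0 of 8 passed an adjusted p of 0.05 in edgeR (0.708% of all 7482 tested genes did), and 1 had an unadjusted p under 0.05 (7.52% of all). DESeq2 called 143 of the 7482, and 0 of the 5 members to which it gave an adjusted p, which left out Acta2, Timp3 and Adamts2. In 4 of the 8 (Lrat, Reln, Timp3 and Adamts2) the groups did not overlap, all with DSS lower (15.6% of all tested genes, either way). Summed endothelial markers were also lower in DSS, at 36.5 to 53.8 CPM against 58.2 to 115 CPM in Control, with all 12 markers detected in both groups, and their part in the lower values of these genes, and of the stellate and matrix lists below, was not tested. A log2 fold change below 0 was found for 7 of 8, but for 4 of 8 with library size as the only scaling, and the median was -0.79 against 0.01 over all tested genes.

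Between Indirubin and DSS 0 of 8 passed an adjusted p of 0.05 in edgeR (0% of 9117 tested genes). In DESeq2, which called 80 of the 9117 and gave no p for Des, 0 of 7 passed. An unadjusted p under 0.05 was found for 2, Mmp14 and Adamts2 (7.68% of all), and the same genes were the 2 without overlap (16.4% of all). The median was 0.81 with 6 of 8 above 0, against 0.15 over all tested genes. Without Indirubin-2 and Indirubin-3, which leaves 1 Indirubin library, Dcn (-0.11), Des (-1.81) and Pdgfrb (-1.64) lay below 0 and Lrat (0.54) above, so that 4 of these 8 were above 0. Summed endothelial markers were also higher in Indirubin (80.1 to 99.7 CPM) than in DSS (36.5 to 53.8 CPM), and their part in these values was not tested. Between Indirubin and Control 0 of 8 passed in edgeR (0.236% of 8059). In DESeq2, which called 316 of the 8059, 1 of 7 passed, Mmp14, again with no p for Des. Here 3 genes, Mmp14, Reln and Lrat, had an unadjusted p under 0.05 (13.8% of all), and 2, Mmp14 and Lrat, did not overlap (21.6% of all). Summed hepatocyte markers were lower in Indirubin (8948 to 11672 CPM) than in Control (12606 to 20965 CPM), and their part in these values was not tested. The 3 comparisons share libraries, so that a low DSS value enters both comparisons with DSS.

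Scaling mattered for the comparisons with Control. With library size as the only scaling, where the mitochondrial share enters, the median of all tested genes moved to 0.70 between DSS and Control, to 0.43 between Indirubin and DSS and to 1.11 between Indirubin and Control. The genes without overlap between DSS and Control then numbered 1 (Des, higher in DSS) in place of 4, and between Indirubin and Control 0 in place of 2, while over all tested genes they numbered 1664 in place of 1170 and 2588 in place of 1738. Between DSS and Control, Dcn, Acta2 and Mmp14 then lay above 0 (0.28, 0.01 and 0.36), and all 8 genes tested there lay below the shifted median. Timp3 between Indirubin and Control turned to 0.43. Between Indirubin and DSS, Mmp14 and Adamts2 still did not overlap, with log2 fold changes of -1.15 and 2.63, of which the second alone kept an unadjusted p under 0.05. Acta2 was then also under 0.05 between Indirubin and DSS, at 2.36, whereas Reln no longer was between DSS and Control, at -1.40. Between Indirubin and Control, Dcn (1.57), Des (2.51) and Acta2 (2.35) took the place of Mmp14, Reln and Lrat as the genes with an unadjusted p under 0.05.

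**Figure D4:**
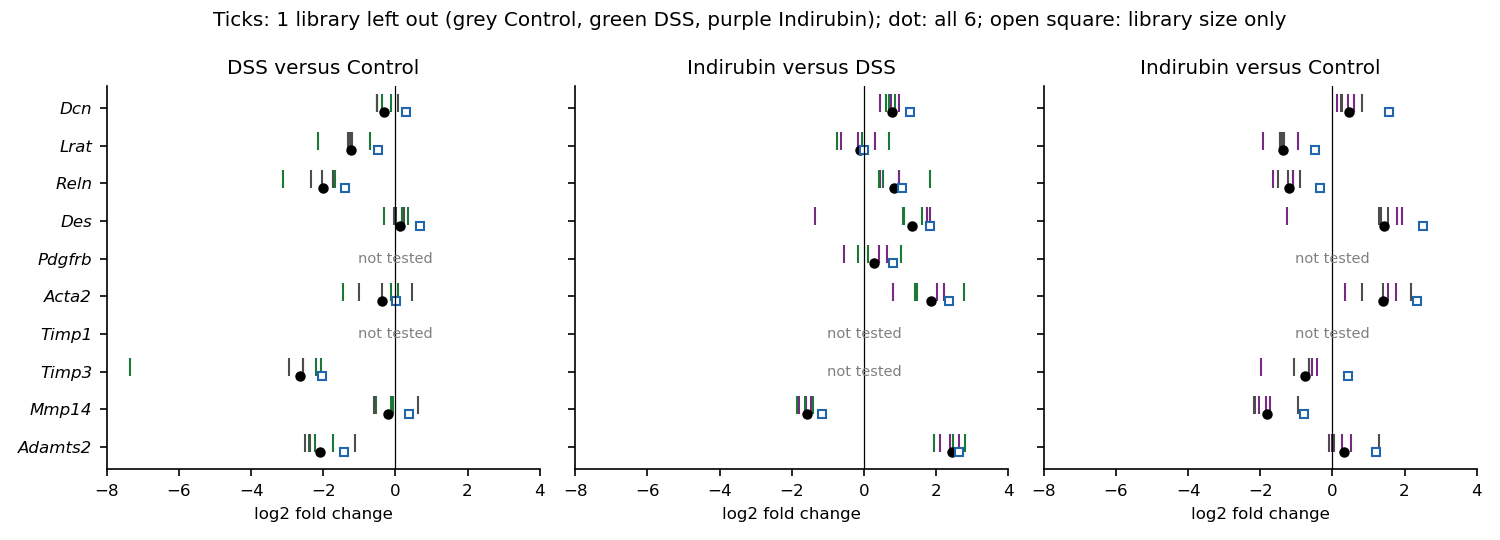
Log2 fold change (horizontal axes) of each tested gene with all 6 libraries of a comparison (dots), with each library left out in turn (ticks, coloured by the group it came from) and with library size as the only scaling (open squares). Mmp14 keeps to -1.86 to -1.40 between Indirubin and DSS, whereas Des moves from 1.34 to -1.35 without Indirubin-3.

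Related genes were described by list. Of 20 other genes of stellate cell identity, 16 were tested between DSS and Control, 13 of them below 0 (median -0.35), and 3 had an unadjusted p under 0.05, all lower in DSS (Colec11, Ecm1 and, named after its values were seen, Vipr1), against 303 of all 7482 tested genes on the lower side. Colec11, a soluble lectin of the complement system, had a log2 fold change of -1.90 (SE 0.42, adjusted p = 0.0690), with counts of 110, 100 and 85 in Control and 59, 28 and 39 in DSS. Ecm1, extracellular matrix protein 1, had -1.45 (SE 0.34, adjusted p = 0.0932), with 705, 465 and 330 counts in Control and 238, 266 and 340 in DSS. Both were without overlap on the CPM scale, and no gene of any list passed an adjusted p of 0.05 in the main edgeR test. With library size as the only scaling, 7 of the 16 were below 0 and 13 were below the median of all genes.

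Between Indirubin and DSS 12 of the 16 stellate genes were above 0 (median 0.79), and 1 had an unadjusted p under 0.05, against 7.68% of all tested genes. The part of the higher endothelial markers, all 12 of which were detected in both groups, was not tested here either. The gene under that p, Rgs5, a regulator of G-protein signalling found in pericytes and stellate cells, had a log2 fold change of 1.31 (SE 0.46, adjusted p = 0.500), with 127, 82 and 183 counts in DSS and 92, 702 and 466 in Indirubin. Its high counts were in the 2 libraries with acinar transcripts. Against Control, 7 of 15 were above 0 (13 with library size as the only scaling, 6 of them above the median of all genes), with Rgs5 at 1.14 (SE 0.46). Angptl6 at -2.54 (SE 0.65) and Colec11 at -0.99 (SE 0.40) lay the other way, these 3 with adjusted p-values of 0.118 to 0.299.

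Of contractile and cytoskeletal genes of myofibroblasts, 5 of 7 tested lay above 0 between DSS and Control, against 3784 of all 7482 tested genes. Between Indirubin and DSS 6 of 9 did, against 5179 of all 9117. Between Indirubin and Control 6 of 8 were above 0 (median 0.96), against 4472 of all 8059 tested genes. With library size as the only scaling all 8 were, and 6 lay above the shifted median of all genes. An unadjusted p under 0.05 was found for 4 (Vim, Tpm1 and, named after their values were seen, Myl9 and Tpm2), against 13.8% of all tested genes. Of these, Vim, the intermediate filament vimentin, was at 1.33 (SE 0.41, adjusted p = 0.173), and Tpm1, a tropomyosin, at 1.69 (SE 0.53, adjusted p = 0.175). As with Des and Acta2, Tpm1 was highest in Indirubin-3, with 432 counts (37.3 CPM) against 73 and 118 (13.4 and 9.67 CPM) in Indirubin-1 and Indirubin-2. Vim was also higher in DSS than in Control (1.00, SE 0.39, adjusted p = 0.497), with 61, 47 and 63 counts in Control, 176, 167 and 207 in DSS, and 167, 237 and 439 in Indirubin. Vimentin is also made by leukocytes and endothelium, and neutrophil markers were lowest in Control (1.17 to 3.65 CPM), higher in DSS (11.5 to 19.8 CPM) and highest in Indirubin (29.6 to 252 CPM), with 4, 5 and 9 of 10 markers detected. Summed endothelial markers were lower in DSS (36.5 to 53.8 CPM) than in Control (58.2 to 115 CPM), and were 80.1 to 99.7 CPM in Indirubin. The part of leukocytes and endothelium in the Vim values was not tested. Between Indirubin and DSS 2 of 9 tested genes of this list had an unadjusted p under 0.05, against 7.68% of all tested genes. These were Tpm2 at 4.34 (SE 1.51) and S100a6 at 2.29 (SE 0.89), and Tpm2 had 566 counts in Indirubin-3 against 10 and 15 in the other Indirubin libraries. S100a6 had 5 counts in Indirubin-1, within the DSS range on the CPM scale, and 117 and 113 in Indirubin-2 and Indirubin-3, the libraries with acinar transcripts.

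Matrix glycoproteins and proteoglycans other than collagens lay mostly below 0 between DSS and Control. Of these, 15 of 21 tested were lower in DSS (median -0.48), 7 were without overlap on the lower side (639 of all 7482 tested genes were), and 2 of these had an unadjusted p under 0.05 (303 of all 7482 on the lower side). Efemp1, a fibulin of elastic fibres, had 51, 13 and 25 counts in Control and 0, 4 and 1 in DSS (log2 fold change -4.58, SE 1.20, adjusted p = 0.152). Bgn, biglycan, the proteoglycan closest to decorin, had a value of -1.02 (SE 0.33, adjusted p = 0.357). Vtn, the plasma protein vitronectin that hepatocytes secrete, was the gene on the higher side, at 1.03 (SE 0.41, adjusted p = 0.515). With library size as the only scaling, 11 of the 21 were below 0 and 16 below the median of all genes.

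Between Indirubin and DSS 14 of 19 genes of the same list were above 0 (median 0.89), and 3 of these had an unadjusted p under 0.05 (Bgn, Sparc and, named after its values were seen, Nid1), against 406 of all 9117 tested genes on the higher side. Bgn, at 0.93 (SE 0.36, adjusted p = 0.567), and Sparc, a collagen-binding matricellular protein, at 0.89 (SE 0.37, adjusted p = 0.604), were each without overlap. Sparc was at 38.4 and 36.4 CPM in Indirubin-2 and Indirubin-3 and at 26.1 CPM in Indirubin-1. Endothelial markers were higher in the Indirubin group here too, and their part in this list was not tested. Bgn was at 47.0 ± 15.1 CPM in Control, 22.6 ± 2.53 CPM in DSS and 42.9 ± 5.39 CPM in Indirubin (SD, n = 3). Spp1, osteopontin, lay the other way at -1.76 (SE 0.77, adjusted p = 0.628). Between Indirubin and Control 9 of 20 were above 0, none with an unadjusted p under 0.05 in edgeR. With library size as the only scaling 19 were above 0, and 9 above the shifted median of all genes.

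For proteases and inhibitors few genes could be tested. Of 22 other matrix metalloproteinases, 2, 2 and 3 were tested in the comparisons DSS with Control, Indirubin with DSS and Indirubin with Control, none with an unadjusted p under 0.05 in edgeR. Of 24 other ADAMTS and ADAMTS-like genes 5, 7 and 7 were tested, again with none under 0.05. Among inhibitors and the plasmin system, Timp2, a further TIMP, had a log2 fold change of -2.08 (SE 0.70, adjusted p = 0.382) between DSS and Control. Its groups overlapped, with Control-2 at 2.99 CPM and DSS-3 at 4.48 CPM. Tfpi2, an inhibitor of plasmin, had -1.42 (SE 0.59, adjusted p = 0.604) between Indirubin and DSS.

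Among enzymes of collagen processing and crosslinking, 9, 12 and 9 of 18 were tested. Pcolce, which enhances procollagen C-proteinase, had -1.67 (SE 0.74, adjusted p = 0.631) between DSS and Control. Its groups overlapped, with Control-3 at 3.65 CPM and DSS-3 at 3.93 CPM. Loxl1, a lysyl oxidase, had 0, 2 and 0 counts in Control, 0, 0 and 4 in DSS, and 10, 22 and 18 in Indirubin. Every Control library was at or under the floor of 3 counts, and the 3 Indirubin libraries were above it, without overlap (adjusted p = 0.273 in edgeR).

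Of 26 ligands, receptors and targets of PDGF and TGF-beta, the cytokine that drives matrix synthesis in stellate cells, 15 were tested between Indirubin and DSS, and 11 were above 0 (median 0.25). An unadjusted p under 0.05 was found for 3, all higher in Indirubin (Tgfbr2, Tgfbr3 and, named after its values were seen, Ltbp1), against 406 of all 9117 tested genes on the higher side. Among these, Tgfbr2, the type II receptor, had 8, 15 and 4 counts in DSS and 23, 51 and 77 in Indirubin (log2 fold change 1.96, SE 0.87, adjusted p = 0.628). Tgfbr3, betaglycan, had 2.04 (SE 0.91, adjusted p = 0.631). Both receptors are also carried by endothelium, and the part of the higher endothelial markers in these values was not tested. Mean Tgfbr2 was 5.08 CPM in Control, 1.32 CPM in DSS and 5.02 CPM in Indirubin. Indirubin against Control gave 0.01 (SE 0.72) for Tgfbr2, 0.83 (SE 0.92) for Tgfbr3 and 1.06 (SE 1.02) for Ltbp1. Between DSS and Control 9 of 12, and between Indirubin and Control 6 of 15, were below 0. None had an unadjusted p under 0.05 in edgeR. With library size as the only scaling 3 and 2 were below 0, and 8 and 7 below the median of all genes.

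**Figure D5:**
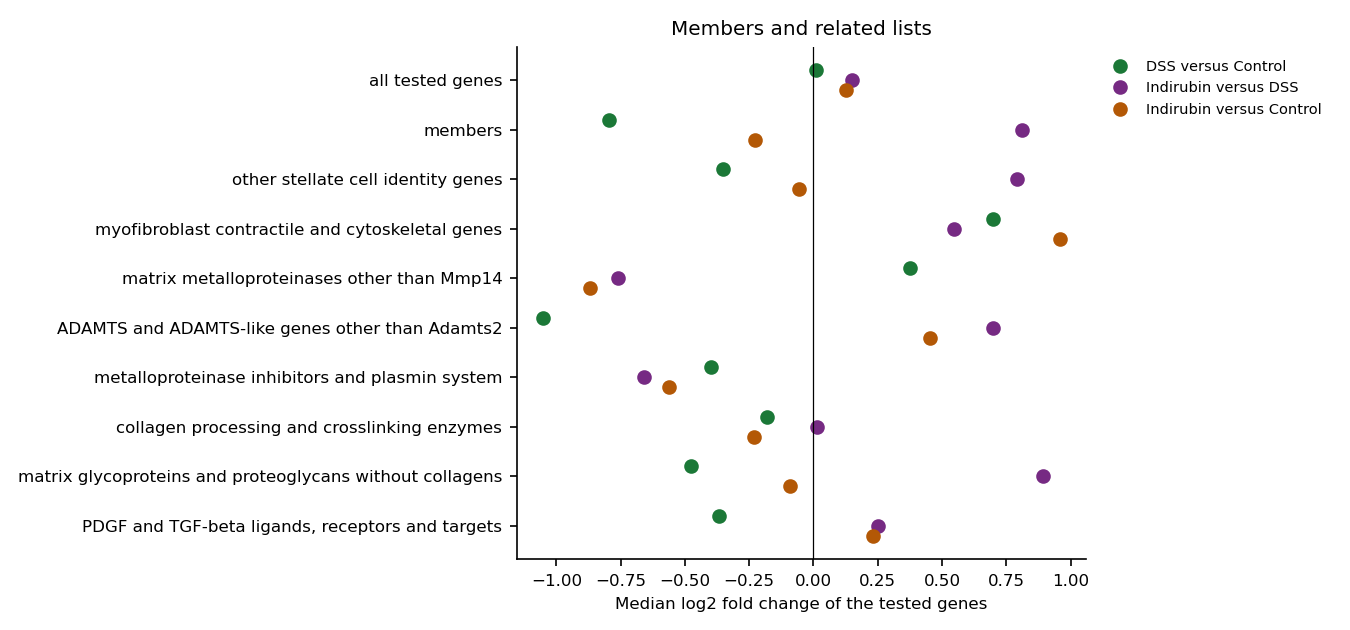
Median log2 fold change (horizontal axis) of the tested genes of each list in the 3 comparisons, with all tested genes in the top row. Lists hold 2 to 21 tested genes. Medians of the 10 genes, of other stellate genes and of matrix glycoproteins lie below 0 between DSS and Control and at 0.79 to 0.89 between Indirubin and DSS.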

How the data were processed

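Liver RNA of 9 libraries (3 a group) was extracted with the RNeasy Plus Micro Kit, made into libraries from 400 ng and sequenced on a DNBSEQ instrument. The authors deposited whole-number counts per gene without normalization, with GRCm39 in their processing notes; aligner, counter, annotation release and strand setting are not given in the sources used here. The authors also deposited FPKM values, which divide each count by gene length and by a library size, and these served here for levels between genes (100% of values above 0 match the counts within 0.1%). The authors' columns of group means, fold changes and p-values and their gene lists per group were not used.

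Counts were tested in R 4.3.3 with edgeR 4.0.16 (TMM, filterByExpr at a minimum count of 10 and total of 15, glmQLFit, glmQLFTest) on the 6 libraries of each comparison, with Benjamini-Hochberg adjustment over all genes tested. The standard error is the fold change divided by the square root of F. Exact permutation tests (scipy 1.17.1, two-sided, 3 against 3) cannot go below p = 0.1. Floors cover counting error only. Alternatives used DESeq2 1.42.0 size factors and Wald test, library size only, other filters, 1 fit of all 9 libraries, a replicate block, no mitochondrial genes and each library left out. The test was also run on simulated counts, and the outcome is not given here. Named genes are all 10 members and, per list and comparison, up to 2 each way with the smallest unadjusted p under 0.05, of which 1 list gene is not reported here. The 10 members and the 8 pathway and 8 marker lists were chosen with earlier results of these data known. 1 listed marker (Tf) was not found in the table.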

Additional observations from a re-analysis of the deposited data

How the results depend on the processing

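Of 339 member fold changes under an alternative, 307 kept sign and call (for 5 of them DESeq2 gave no adjusted p) and 28 turned sign. Reln passed an adjusted p of 0.05 between DSS and Control with no filter (1 member called) and without DSS-1, and Mmp14 passed between Indirubin and Control with DESeq2's Wald test and with no filter (1 member each). With library size as the only scaling, genes without overlap numbered 1 and 0 among the members in the comparisons with Control, 0 members had an unadjusted p under 0.05 between DSS and Control, and Dcn (0.28), Acta2 (0.0078) and Mmp14 (0.36) between DSS and Control and Timp3 (0.43) between Indirubin and Control turned sign; the share of genes higher among those at an unadjusted p under 0.05 moved from 46.2% to 92.2%, from 58% to 79.8% and from 53.9% to 95.2% (DSS with Control, Indirubin with DSS, Indirubin with Control).

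Genes called over all tested, in that order, were 19, 2 and 266 with library size only, 143, 80 and 316 with DESeq2, 125, 156 and 379 with no filter, 84, 2 and 72 with at least 10 counts in every library (fewer genes tested), 11, 4 and 56 with all 9 libraries in 1 fit, and 30, 3 and 49 with the replicate block, against 53, 0 and 19. At an unadjusted p under 0.05 they numbered 916 (DSS with Control) and 2222 (Indirubin with Control) with library size only, 1434 (Indirubin with DSS) and 1966 (Indirubin with Control) with no filter, and 689 (Indirubin with Control) with at least 10 counts. Members at that p numbered 2 between DSS and Control with DESeq2 (668 of all 7482 genes) and with all 9 libraries in 1 fit (667 of 9713). Between Indirubin and DSS 1 was under it with at least 10 counts (485 of 3988). Without Indirubin-2 and Indirubin-3, an alternative chosen after seeing the data, 1 member (Mmp14) was under that p in both Indirubin comparisons, against 417 (with DSS) and 741 (with Control) of all genes. Sign turned there for Dcn (-0.11), Des (-1.81), Lrat (0.54) and Pdgfrb (-1.64) against DSS and for Dcn (-0.49) and Des (-1.76) against Control. Apart from scaling by library size, the causes of these shifts were not tested.

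Libraries with the same number in their sample titles did not deviate together (correlations -0.04 to 0.04 over 8495 genes). The deposited library names number the Indirubin libraries differently, and a pairing by those names was not tested. Under the replicate block Acta2 (0.17) and Mmp14 (0.0013) between DSS and Control and Des (-0.13) and Lrat (0.39) between Indirubin and DSS turned sign, and no member was called.

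Leaving out 1 library at a time, all genes called ranged from 12 to 64, 0 to 134 and 1 to 465, members called from 0 to 1 between DSS and Control, all genes at an unadjusted p under 0.05 from 429 to 619, 482 to 1122 and 845 to 1700, and members at that p from 1 to 2, 1 to 3 and 1 to 4. Without Indirubin-1 the calls reached 134 and 465, and 12 came without Control-2. Fold changes that turned sign ranged, between DSS and Control, from -0.51 to 0.058 for Dcn, -0.30 to 0.36 for Des, -1.44 to 0.45 for Acta2 and -0.59 to 0.63 for Mmp14; between Indirubin and DSS from -0.74 to 0.71 for Lrat, -1.35 to 1.82 for Des and -0.55 to 1.02 for Pdgfrb; and between Indirubin and Control from -1.25 to 1.93 for Des and -0.089 to 1.30 for Adamts2. Standard errors between DSS and Control ranged from 0.36 for Dcn (5104 counts over 9 libraries) to 1.57 for Timp3 (120 counts).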
